A study of Mus musculus with 18 samples.

Results

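Astrocyte transcripts were followed in ribosome pull-downs that were aimed at cholinergic neurons of the mouse spinal cord, so that they served as a measure of background. The genes were 9 markers of astrocytes, taken by their gene name: Gfap, Aqp4, Aldh1l1, Slc1a2, Slc1a3, Gja1, Aldoc, S100b and Slc6a11. Each name matched 1 gene of the 38924 in every table, and all 9 passed the filter on low counts in each fit. The rule used gene names and no measured values.

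Astrocytes are the glial cells that surround synapses and vessels, clear transmitter from the extracellular space, buffer potassium and water, and pass small molecules to each other through gap junctions. Slc1a2 (GLT-1) and Slc1a3 (GLAST) take up glutamate, and Slc6a11 (GAT3) takes up GABA. Aqp4 is the water channel of astrocyte endfeet, and Gja1 (connexin 43) forms their gap junctions. Gfap is the intermediate filament that builds up in reactive astrocytes. Aldh1l1 is a folate enzyme, Aldoc a glycolytic aldolase and S100b a calcium-binding protein. As background, Aldoc is also made by some neurons, Purkinje cells among them, and S100b by cells of the oligodendrocyte lineage and by some neurons.

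The 18 libraries came from the spinal cords of 18 mice aged 8 weeks, 1 cord each, on a strain background given as B6;CASTxB6.129. In the RiboTag method, cells with Cre recombinase make Rpl22, a protein of the large ribosomal subunit, with a haemagglutinin tag, and an antibody to the tag brings down their ribosomes with bound mRNA. All mice carried the RiboTag allele on 1 chromosome (Rpl+/-). Cre P278KY mice (n = 3) carried Chat-Cre (Chat+/-) and the P278KY change in Gars (P278KY+/-), Cre WT mice (n = 4) carried Chat-Cre and normal Gars (P278KY+/+), NoCre P278KY mice (n = 6) lacked Cre (Chat+/+) and carried the Gars change, and NoCre WT mice (n = 5) lacked both. Gars encodes glycyl-tRNA synthetase, and P278KY is a dominant mouse allele that causes a motor and sensory neuropathy. Chat-Cre is expected to tag ribosomes of cells that make acetylcholine, motor neurons among them, and the mice without Cre were the negative controls of the study. An astrocyte transcript in these libraries can therefore be set against its level in pull-downs without a tag. Replicate numbers only name mice. Each mouse name also starts with a number that recurs in other groups, and the labels do not say what it stands for.

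The Cre P278KY libraries held 15461440 to 18944769 counts, the Cre WT libraries 14659488 to 24028649, the NoCre P278KY libraries 9876808 to 14450144 and the NoCre WT libraries 8177758 to 11480402. Mitochondrial ribosomal RNA took 2.16% to 4.88% of the counts in Cre P278KY and 1.36% to 3.36% in Cre WT, against 24.2% to 38.6% in NoCre P278KY mice and 31.8% to 53.8% in NoCre WT. The gene with the most counts in every Cre library was Gm26924, and mt-Rnr2 in every NoCre library. Gm26924 took 13.4% to 26.3% of the counts in Cre P278KY. In Cre WT replicates 1 to 4 its share was 28.2%, 30.1%, 9.37% and 19.0%. Chat was at 80.9 to 169 counts per 1000000 (CPM) in Cre libraries and at 1.93 to 12.9 CPM in NoCre libraries. All 12 cholinergic neuron markers rose in both comparisons of Cre with NoCre. The libraries fell into 2 pools by their index sequences, which occur once among the first 10 libraries and start again among the other 8. Pool 1 held all 3 Cre P278KY libraries, Cre WT replicates 1 and 2, NoCre P278KY replicates 1 to 3 and NoCre WT replicates 1 and 2. Pool 2 held Cre WT replicates 3 and 4, NoCre P278KY replicates 4 to 6 and NoCre WT replicates 3 to 5. Judged by Xist and Y-linked transcripts, pool 1 held male WT and NoCre mice and pool 2 female ones, without exception, so that pool and sex cannot be told apart in them. The 3 Cre P278KY mice were 1 male and 2 females.

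In GENCODE M21 (GRCm38) all 9 are protein-coding genes. Slc1a2 lies on chromosome 2 from 102658659 to 102790784 (plus strand), Aldh1l1 on chromosome 6 from 90486427 to 90600203 (plus) and Slc6a11 on chromosome 6 from 114131241 to 114249952 (plus). Gja1 lies on chromosome 10 from 56377330 to 56402513 (plus) and S100b on the same chromosome from 76253853 to 76261159 (plus). Aldoc lies on chromosome 11 from 78322968 to 78327781 (plus), Gfap on chromosome 11 from 102887336 to 102900912 (minus) and Slc1a3 on chromosome 15 from 8634124 to 8710764 (minus). The 250 bases before the RefSeq start were read for 8 of the 9 genes, and those of 4 genes are shown because they hold S100b, the member that rose in Cre libraries, and 3 of the 7 members that fell. Capitals mark matches on either strand of TTGGC, the half-site bound by nuclear factor I, and of TTCNNNGAA, the core bound by STAT factors. Coordinates are GRCm38.p6 and each sequence runs 5′ to 3′ along its gene.
S100b, chr10:76253586-76253835, plus strand: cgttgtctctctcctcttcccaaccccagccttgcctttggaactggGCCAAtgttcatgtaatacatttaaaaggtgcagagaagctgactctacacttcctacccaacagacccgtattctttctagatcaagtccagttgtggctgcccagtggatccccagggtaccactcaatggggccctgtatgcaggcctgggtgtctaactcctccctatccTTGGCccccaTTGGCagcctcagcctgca
Gfap, chr11:102897201-102897450, minus strand: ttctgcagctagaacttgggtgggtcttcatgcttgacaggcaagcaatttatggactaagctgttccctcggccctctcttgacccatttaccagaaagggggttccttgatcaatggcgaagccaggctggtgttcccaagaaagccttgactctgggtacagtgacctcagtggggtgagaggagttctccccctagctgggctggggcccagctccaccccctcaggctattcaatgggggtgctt
Slc1a3, chr15:8710808-8711057, minus strand: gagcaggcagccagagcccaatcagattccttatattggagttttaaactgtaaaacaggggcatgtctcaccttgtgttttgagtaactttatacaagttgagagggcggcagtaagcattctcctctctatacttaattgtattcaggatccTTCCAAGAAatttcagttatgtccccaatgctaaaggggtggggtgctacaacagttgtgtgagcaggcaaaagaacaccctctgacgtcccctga
Gja1, chr10:56377050-56377299, plus strand: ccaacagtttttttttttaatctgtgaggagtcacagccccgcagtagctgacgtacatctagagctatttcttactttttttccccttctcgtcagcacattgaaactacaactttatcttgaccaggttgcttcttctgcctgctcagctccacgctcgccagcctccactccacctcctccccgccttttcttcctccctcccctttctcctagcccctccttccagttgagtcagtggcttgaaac
The S100b window held 3 matches of TTGGC, and 2.68% of the 32851 RefSeq windows of this length held 3 or more. The Slc1a3 window held 1 match of TTCNNNGAA, as did at least 1 place in 7.02% of the windows. The Gfap and Gja1 windows held neither. The Gfap window lies inside the longer GENCODE gene, upstream of the RefSeq start. Of the 6 members that fell and had a window, Slc1a2 held 1 match of TTGGC and Slc1a3 the match of TTCNNNGAA named above. The windows of the others held neither. An Aldoc window held 1 match of TTGGC. Another Aldoc window held 2 of TTCNNNGAA, and 0.317% of the windows held 2 or more. These letter matches are a description and say nothing of binding.

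As shares of a library, most astrocyte transcripts were far lower in Cre than in NoCre libraries. In both genotypes 7 of the 9 genes fell, namely Slc1a2, Slc1a3, Slc6a11, Aqp4, Gja1, Gfap and Aldh1l1, while S100b rose and Aldoc did not pass the test. Of all 17133 genes tested, 59.4% were called in P278KY mice (31.2% lower and 28.2% higher) and 59.7% in WT mice (31.2% lower and 28.5% higher), by edgeR's quasi-likelihood test at an adjusted p under 0.05. Summed over the 9 genes, Cre P278KY libraries held 852 to 1370 CPM and Cre WT libraries 1090 to 1900 CPM, against 3070 to 3990 CPM in NoCre P278KY and 2660 to 3640 CPM in NoCre WT. CPM are shares of a library, and cholinergic neuron genes rose in Cre libraries. In bulk pull-downs, a larger share of other RNA, RNA from fewer astrocytes and less RNA per astrocyte cannot be told apart.

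**Figure D1:**
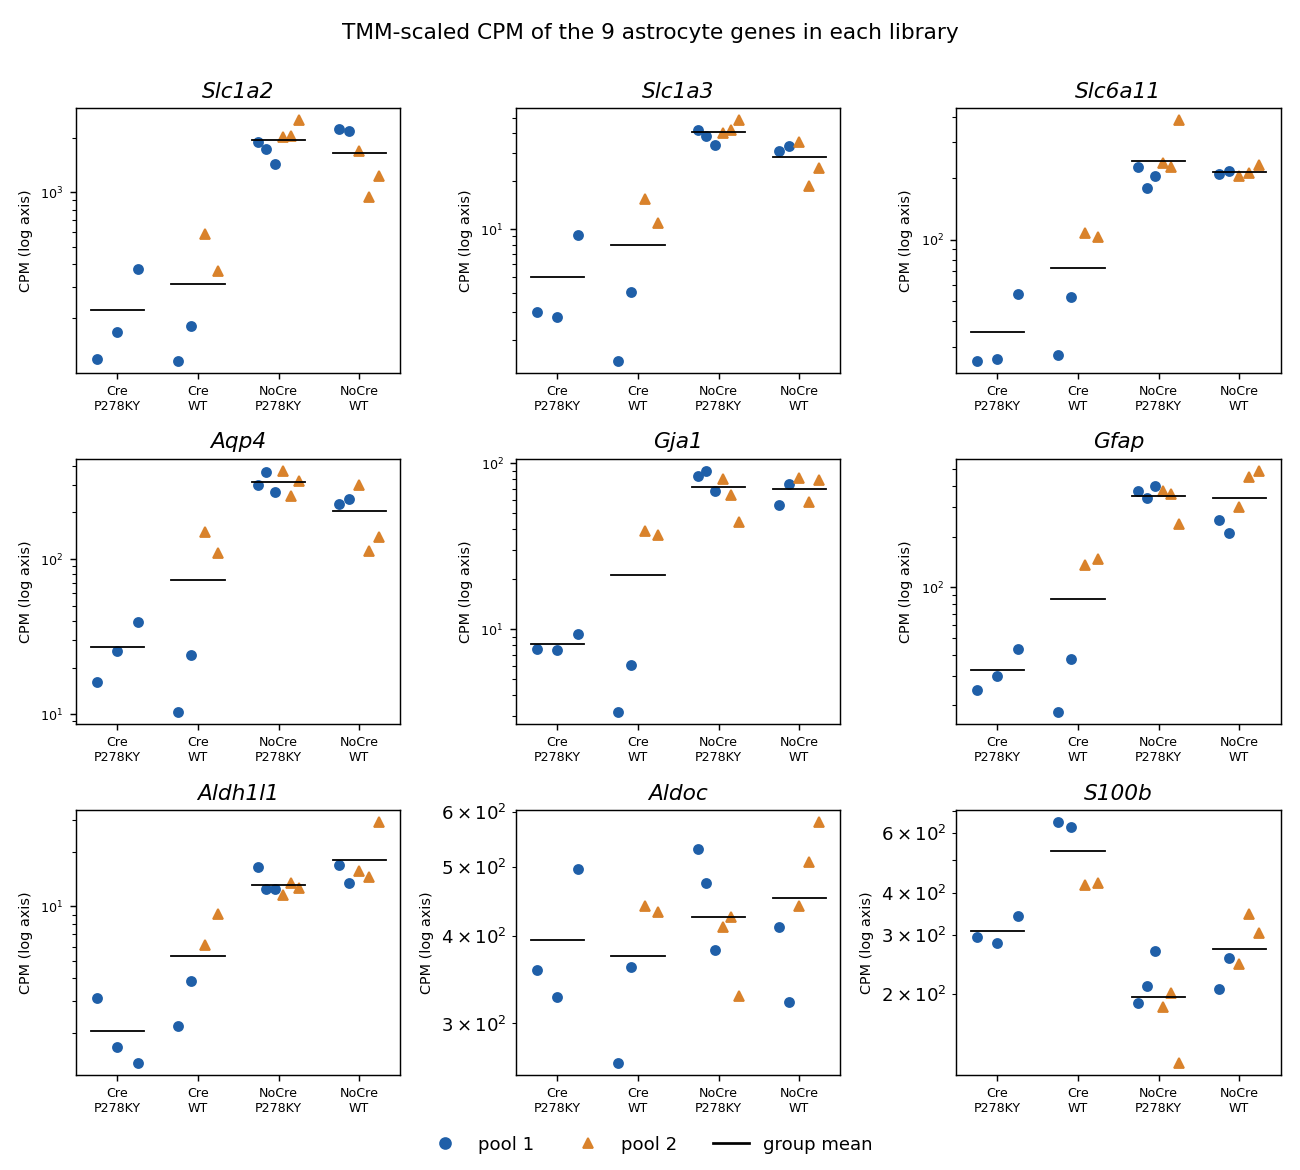
Level of each of the 9 astrocyte genes in every library, in TMM-scaled CPM on a log axis, with 1 point per mouse, circles for pool 1, triangles for pool 2 and a line at the group mean. The Cre libraries lie far below the NoCre libraries for 7 genes, and Cre WT replicates 3 and 4 are the highest Cre libraries for 6 of them, with Slc1a2 the exception, while Aldoc overlaps throughout and S100b is higher in Cre.

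Of the transmitter transporters, Slc1a2 is the main glutamate transporter of the central nervous system. It had 119, 168 and 378 CPM in Cre P278KY, 117, 183, 584 and 364 CPM in Cre WT replicates 1 to 4, 1433 to 2497 CPM (median 1952) in NoCre P278KY, and 2235, 2174, 1680, 937 and 1236 CPM in NoCre WT. Every Cre library lay below every NoCre library. The log2 fold change was -3.13 (SE 0.49, edgeR adjusted p = 4.36e-05) in P278KY and -2.40 (SE 0.43, edgeR adjusted p = 0.00013) in WT. Slc1a3, the glutamate transporter that is also prominent in radial glia and the cerebellum, had 3.03, 2.82 and 9.12 CPM in Cre P278KY, 1.49, 4.04, 15.5 and 10.9 CPM in Cre WT, 33.9 to 48.1 CPM (median 40.8) in NoCre P278KY, and 30.7, 33.01, 35.2, 18.5 and 24.2 CPM in NoCre WT. The groups did not overlap, and the fold changes were -3.04 (SE 0.55, edgeR adjusted p = 0.000131) and -1.81 (SE 0.47, edgeR adjusted p = 0.00266) in P278KY and WT. Slc6a11 clears GABA around inhibitory synapses. It had 25.6, 26.0 and 54.3 CPM in Cre P278KY, 27.2, 52.2, 108 and 104 CPM in Cre WT, 179 to 384 CPM (median 227) in NoCre P278KY, and 209, 218, 205, 211 and 232 CPM in NoCre WT. It fell by 2.79 (SE 0.38, edgeR adjusted p = 4.39e-06) in P278KY and by 1.56 (SE 0.32, edgeR adjusted p = 0.000374) in WT on the log2 scale, again without overlap.

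The water channel Aqp4 had 16.2, 25.5 and 39.5 CPM in Cre P278KY, 10.4, 23.9, 150 and 110 CPM in Cre WT, 253 to 367 CPM (median 309) in NoCre P278KY, and 226, 245, 301, 113 and 139 CPM in NoCre WT. It was the only one of the 7 whose WT groups overlapped: Cre WT replicate 3 lay above NoCre WT replicates 4 and 5. Its log2 fold change was -3.53 (SE 0.70, edgeR adjusted p = 0.000575) in P278KY and -1.47 (SE 0.57, edgeR adjusted p = 0.0363) in WT. The WT call was lost without Cre WT replicate 2 (-1.18, edgeR adjusted p = 0.0935). It was also lost without NoCre WT replicate 1, 2 or 3 (adjusted p 0.0571, 0.0661 and 0.0738). The gap junction gene Gja1 had 7.58, 7.51 and 9.33 CPM in Cre P278KY, 3.18, 6.10, 38.9 and 36.9 CPM in Cre WT, 44.5 to 89.4 CPM (median 74.1) in NoCre P278KY, and 56.1, 75.4, 81.9, 58.4 and 79.6 CPM in NoCre WT. No Cre library reached the NoCre range. The fold change was -3.14 (SE 0.61, edgeR adjusted p = 0.000379) in P278KY and -1.71 (SE 0.51, edgeR adjusted p = 0.00864) in WT.

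Gfap, the filament protein by which astrocytes are most often stained, had 24.6, 29.9 and 43.0 CPM in Cre P278KY, 18.4, 37.9, 136 and 148 CPM in Cre WT, 238 to 399 CPM (median 365) in NoCre P278KY, and 253, 211, 299, 454 and 487 CPM in NoCre WT. Cre and NoCre did not overlap in either genotype. The log2 fold change was -3.42 (SE 0.56, edgeR adjusted p = 7.11e-05) in P278KY and -1.997 (SE 0.47, edgeR adjusted p = 0.0015) in WT. Aldh1l1, which oxidises a one-carbon carrying folate, had the lowest mean deposited TPM (a level per transcript length) of the 9 genes in each group, although Slc1a3 was below it in Cre WT of pool 1 alone (0.895 against 1.02 TPM). Aldh1l1 had 3.13, 1.67 and 1.37 CPM in Cre P278KY, 2.18, 3.88, 6.16 and 9.08 CPM in Cre WT, 11.6 to 16.6 CPM (median 12.5) in NoCre P278KY, and 16.9, 13.5, 15.6, 14.5 and 29.1 CPM in NoCre WT. In the Cre libraries these levels rested on 20 to 211 counts per library, and those of Slc1a3 on 24 to 509. It fell by 2.67 (SE 0.41, edgeR adjusted p = 1.34e-05) in P278KY and by 1.74 (SE 0.35, edgeR adjusted p = 0.000239) in WT, without overlap.

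Aldoc and S100b did not follow the other members. Aldoc, the aldolase of glycolysis that marks astrocytes across the brain, had 358, 327 and 498 CPM in Cre P278KY, 264, 360, 440 and 432 CPM in Cre WT, 328 to 532 CPM (median 418.5) in NoCre P278KY, and 412, 321, 441, 509 and 579 CPM in NoCre WT. All 4 groups overlapped. Its log2 fold change was -0.11 (SE 0.21, edgeR adjusted p = 0.668) in P278KY and -0.27 (SE 0.20, edgeR adjusted p = 0.246) in WT, and the WT value was 0.13 when libraries were scaled by their total count alone. S100b had 296, 282 and 341 CPM in Cre P278KY, 647, 627, 421 and 426 CPM in Cre WT, 125 to 268 CPM (median 194.7) in NoCre P278KY, and 207, 256, 246, 345 and 303 CPM in NoCre WT. Every Cre library lay above every NoCre library of its genotype, with Cre WT replicates 1 and 2 highest of all. It rose by 0.65 (SE 0.21, edgeR adjusted p = 0.0126) in P278KY and by 0.97 (SE 0.21, edgeR adjusted p = 0.000404) in WT. Scaled to counts in protein-coding genes, the S100b differences were 0.16 (edgeR adjusted p = 0.568) in P278KY and 0.39 (edgeR adjusted p = 0.143) in WT and the calls were lost, and with that scaling all genes had a median of -0.59 in P278KY and -0.68 in WT, against -0.13 and -0.12 with TMM. Without Cre P278KY replicate 3 the P278KY difference was 0.58 (edgeR adjusted p = 0.0534).

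Counted by overlap, 7 of the 9 genes lay lower and S100b higher in every Cre P278KY than in every NoCre P278KY library, where 56.2% of all tested genes did not overlap in either direction (27.9% lower and 28.3% higher). In WT mice the count was 6 lower and S100b higher, against 43.1% of all tested genes (20.7% lower and 22.5% higher).

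**Figure D2:**
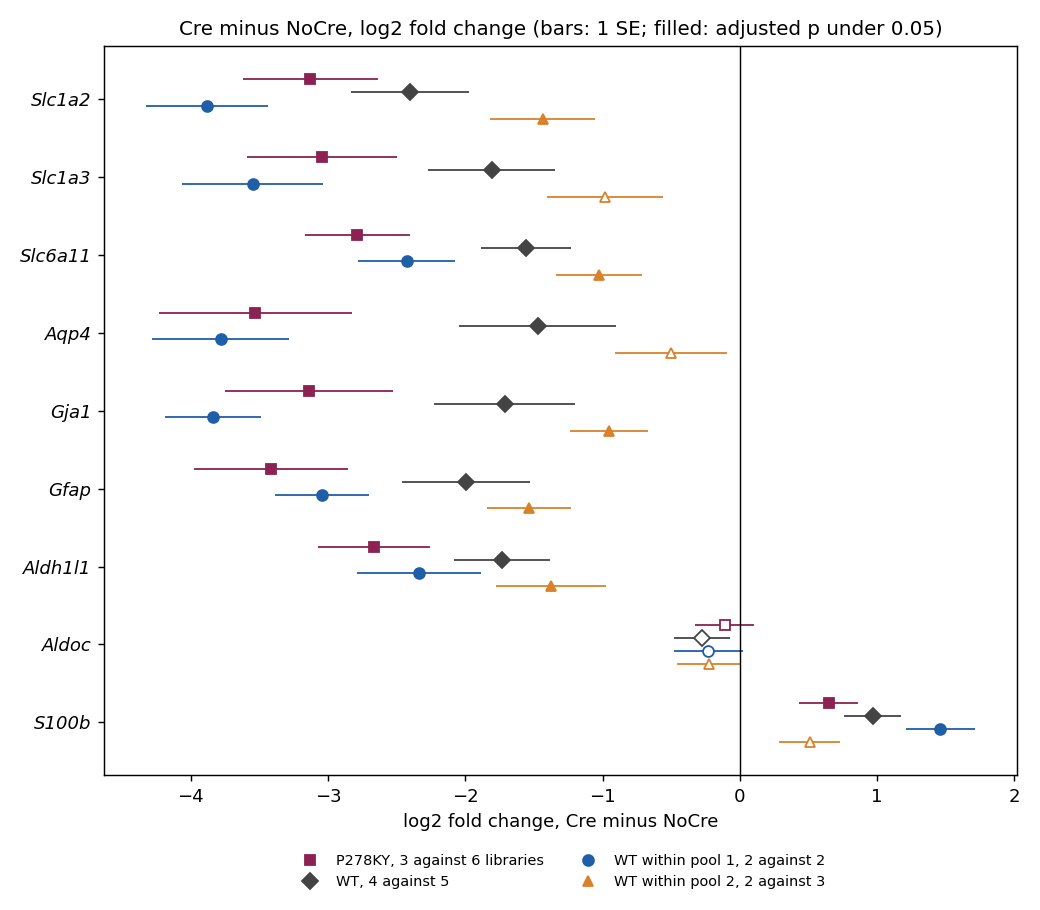
Log2 fold change of Cre over NoCre for the 9 genes, with bars of 1 SE and filled symbols for an edgeR adjusted p under 0.05, in P278KY mice (squares), in WT mice (diamonds) and in WT mice within pool 1 (circles) and pool 2 (triangles). The 7 genes from Slc1a2 to Aldh1l1 lie left of 0 in every set, with pool 2 nearest to 0, while Aldoc lies beside 0 and S100b right of it.

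Further genes of astrocytes were drawn from textbook lists, chosen with earlier results of these data known. Of 45 further astrocyte genes tested, 38 fell and 4 rose in P278KY and 33 fell and 3 rose in WT, with a median log2 fold change of -2.78 in P278KY and -1.40 in WT. Over all tested genes that median was -0.13 in P278KY and -0.12 in WT. Among those that fell in P278KY were Glul, the glutamine synthetase that recycles glutamate (-1.96, SE 0.24, edgeR adjusted p = 6.75e-07), the sodium bicarbonate cotransporter Slc4a4 (-2.82, SE 0.35, edgeR adjusted p = 1.25e-06) and the urea transporter Slc14a1 (-3.50, SE 0.49, edgeR adjusted p = 4.68e-06). The growth factor receptor Fgfr3 fell by 1.82 (SE 0.33, edgeR adjusted p = 6.84e-05) in WT. Like S100b, the secreted protease Htra1 rose, by 1.88 (SE 0.22, edgeR adjusted p = 3.6e-07) in P278KY and by 2.56 (SE 0.22, edgeR adjusted p = 5.9e-09) in WT. The phospholipase Pla2g7 and the secreted chaperone Clu rose by 1.48 (SE 0.22, edgeR adjusted p = 6.83e-06) and 1.51 (SE 0.25, edgeR adjusted p = 3.35e-05) in WT. In P278KY the other genes that rose were Clu (0.98), Pla2g7 (1.10) and Plcd4 (1.305), named after their values were seen.

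Genes that rise in reactive astrocytes were mixed. Of 29 tested, 11 fell and 4 rose in P278KY and 9 fell and 5 rose in WT, with a median of -1.46 in P278KY and -0.74 in WT. The shares of all genes called lower, 31.2% in both genotypes, and higher, 28.2% in P278KY and 28.5% in WT, stand beside those counts, and the counts of lower genes are near them. The small heat shock protein gene Hspb1 rose by 3.85 (SE 0.33, edgeR adjusted p = 7.32e-09) in P278KY and by 4.15 (SE 0.34, edgeR adjusted p = 5.38e-09) in WT. S100a10, which encodes the partner of annexin A2, rose by 3.49 (SE 0.32, edgeR adjusted p = 1.79e-08) in P278KY and by 4.07 (SE 0.34, edgeR adjusted p = 4.49e-09) in WT. Serpina3n, a secreted protease inhibitor, rose by 2.68 (SE 0.35, edgeR adjusted p = 2.67e-06) in WT. Osmr, the oncostatin M receptor, fell by 3.45 (SE 0.46, edgeR adjusted p = 2.19e-06) in P278KY. Hspb1 and S100a10 are also made by neurons.

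Of 26 relatives of the 9 genes in their families, 17 fell and 3 rose in P278KY and 12 fell and 5 rose in WT, with a median of -2.04 in P278KY and -1.09 in WT, beside the same shares of all genes. Gjb6 also belonged to the further astrocyte genes, and S100a10 and Vim to the reactive ones, so the lists were not separate. Aldoa, the other main aldolase of the nervous system and the relative of Aldoc, rose by 2.08 (SE 0.23, edgeR adjusted p = 2.02e-07) in P278KY and by 2.26 (SE 0.23, edgeR adjusted p = 6.06e-08) in WT. Slc1a4, a neutral amino acid transporter of the Slc1a2 family, rose by 1.63 (SE 0.24, edgeR adjusted p = 6.7e-06) in P278KY.

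Cre WT libraries differed by pool. Replicates 3 and 4, both in pool 2, held more of 6 astrocyte genes than replicates 1 and 2: Gfap (log2 difference 2.34, SE 0.33, edgeR adjusted p = 0.000381), Aqp4 (2.93, SE 0.48, 0.00184), Slc1a2 (1.67, SE 0.41, 0.0232), Slc1a3 (2.28, SE 0.50, 0.0102), Gja1 (3.04, SE 0.34, 3.45e-05) and Slc6a11 (1.42, SE 0.34, 0.0182). Of all genes, 5.11% were called in that comparison (3.41% higher and 1.70% lower). For Aldh1l1, Aldoc and S100b it gave 1.34, 0.48 and -0.59 (edgeR adjusted p 0.0824, 0.297 and 0.185). No gene was called by edgeR between the pools among NoCre WT or among NoCre P278KY libraries, where 0% of all genes were called. In that test Xist was not called either, at 323 to 711 CPM in pool 2 against 0.506 to 0.611 CPM in pool 1 of NoCre WT, so a count of 0 does not show that the NoCre pools were alike.

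Within pool 1, Cre WT was compared with NoCre WT on 2 against 2 libraries. Gfap was at -3.04, Aqp4 at -3.78, Slc1a2 at -3.88, Slc1a3 at -3.55, Gja1 at -3.84, Slc6a11 at -2.43 and Aldh1l1 at -2.34 on the log2 scale, and all 7 fell, with edgeR adjusted p-values from 4.05e-08 to 0.00022. S100b rose by 1.46 (SE 0.25, edgeR adjusted p = 7.24e-05). Of all genes, 51.4% were called (26.4% lower and 25.0% higher). Within pool 2, on 2 against 3 libraries, 5 of the 9 genes fell and 40.2% of all genes were called (20.0% lower and 20.2% higher). Those 5 were Gfap at -1.54, Slc1a2 at -1.44, Aldh1l1 at -1.38, Slc6a11 at -1.03 and Gja1 at -0.95 (edgeR adjusted p from 0.0005 to 0.0136). Aqp4 was at -0.50 (edgeR adjusted p = 0.34), Slc1a3 at -0.98 (0.0689), Aldoc at -0.23 (0.454) and S100b at 0.51 (0.0754). In P278KY mice within pool 1, on 3 against 3 libraries, the same 7 genes fell, from -2.53 for Slc6a11 to -3.53 for Aqp4, beside 51.4% of all genes called (26.5% lower and 24.9% higher), and S100b was at 0.47 (SE 0.20, edgeR adjusted p = 0.0593). Without Cre WT replicate 3 or 4, a single Cre WT library was left in pool 2, and it was assumed to vary like the other groups. Gfap (-1.44) and Slc1a2 (-1.77) then passed without replicate 3, where Aldh1l1 (-1.08), Slc6a11 (-1.01) and Gja1 (-0.95) did not. Gfap (-1.65) and Aldh1l1 (-1.73) passed without replicate 4, where Slc1a2 (-1.18), Slc6a11 (-1.04) and Gja1 (-0.96) did not.

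The difference between the pools was itself tested, as Cre minus NoCre in WT within pool 2 less the same within pool 1. It was above 0 for Gja1 (2.88, SE 0.43, edgeR adjusted p = 0.00179), Aqp4 (3.28, SE 0.61, edgeR adjusted p = 0.00915), Slc1a2 (2.44, SE 0.54, edgeR adjusted p = 0.017), Slc1a3 (2.57, SE 0.64, edgeR adjusted p = 0.0245) and Gfap (1.51, SE 0.43, edgeR adjusted p = 0.0423). These 5 of 9 stood beside 5.54% of all genes called (2.95% higher and 2.59% lower). It was 1.40 for Slc6a11 (edgeR adjusted p = 0.0695), 0.96 for Aldh1l1 (0.34) and -0.95 for S100b (0.0955). These differences hold the NoCre WT libraries of both pools too. Among those alone, pool 2 minus pool 1 was -0.78 for Slc1a2 (SE 0.36, edgeR adjusted p = 0.481) and 0.83 for Gfap (SE 0.30, 0.421). With a Cre WT library, or a NoCre WT library of pool 1, left out, 1 library of that group stayed in its pool, and its spread was taken from the other groups. The call of Gfap was lost without any of Cre WT replicates 1, 3 and 4 and NoCre WT replicates 1, 2, 4 and 5 (edgeR adjusted p from 0.0513 to 0.166). Slc1a2 lost it without Cre WT replicate 1 or 3 or NoCre WT replicate 1 (0.0651, 0.0589 and 0.0507), and Slc1a3 without Cre WT replicate 1 or 3 or NoCre WT replicate 1 or 2 (0.0562 to 0.0989), while Gja1 and Aqp4 kept it each time.

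The level left in each Cre library was also expressed as a percent of the mean in NoCre libraries of the same genotype and pool. The 7 genes that fell were at 4.42% to 26.7% in the 5 Cre libraries of pool 1 and at 28.4% to 81.6% in Cre WT replicates 3 and 4. The lowest value was Aqp4 in Cre WT replicate 1 and the highest Aqp4 in Cre WT replicate 3. The latter was taken over an Aqp4 mean of 184 CPM, from 301, 113 and 139 CPM in NoCre WT replicates 3 to 5. The median over the 9 genes was 9.44%, 9.99% and 22.4% in Cre P278KY and 7.93%, 16.3%, 53.1% and 48.1% in Cre WT. Aldoc was at 70.7% to 108% over all 7 libraries. S100b was at 127% to 154% in Cre P278KY mice, 271% to 280% in Cre WT replicates 1 and 2 and 141% to 143% in Cre WT replicates 3 and 4. The members therefore did not sit at 1 common share of their background level within a library. Over all genes the median was 85.5% to 93.8%.

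Other glia were measured in the same way. The median of 45 further astrocyte genes was 11.1% to 21.7% in the pool 1 Cre libraries and 61.1% and 58.6% in Cre WT replicates 3 and 4. That of 12 oligodendrocyte genes was 6.03% to 14.0% in pool 1 and 46.5% and 49.7% in pool 2, and their summed level was 732 to 1830 CPM in Cre P278KY, 778 to 1230 CPM in Cre WT of pool 1 and 3950 to 4350 CPM in Cre WT of pool 2, against 9750 to 13600 CPM in NoCre P278KY and 8460 to 13300 CPM in NoCre WT. That of 12 microglia genes was 7.18% to 14.2% in pool 1 and 12.7% and 8.44% in pool 2. None of the 12 microglia genes differed between the pools in the Cre loss by edgeR (2 at an unadjusted p under 0.05), while 9 of 12 oligodendrocyte genes and 19 of 45 further astrocyte genes were higher and 2 of the 45 lower. Vascular genes were at 33.6% in Cre WT replicate 3 and 10.2% in replicate 4. Directly between the Cre WT pools, as pool 2 minus pool 1, edgeR also called genes of other lists higher. Among them were Vtn (4.16, adjusted p = 3.74e-05), Rgs5 (2.75, 0.00141) and Pdgfrb (2.84, 0.0035) of the vascular list. Gpr17 (2.55, 0.000515) and Olig1 (1.89, 0.000661) were oligodendrocyte precursor genes, and Gad2 (1.61, 0.00804) and Slc17a6 (1.03, 0.0242) genes of other neurons. Chodl (-1.11, 0.0164) and Tubb3 (-0.98, 0.026) were called lower. The 12 cholinergic neuron genes stood at 2690% to 3710% in pool 1 and at 1300% and 1250% in Cre WT replicates 3 and 4. The part of pool, of sex, of the number that starts the mouse names and of the oligodendrocyte level in the astrocyte difference was not tested.

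**Figure D3:**
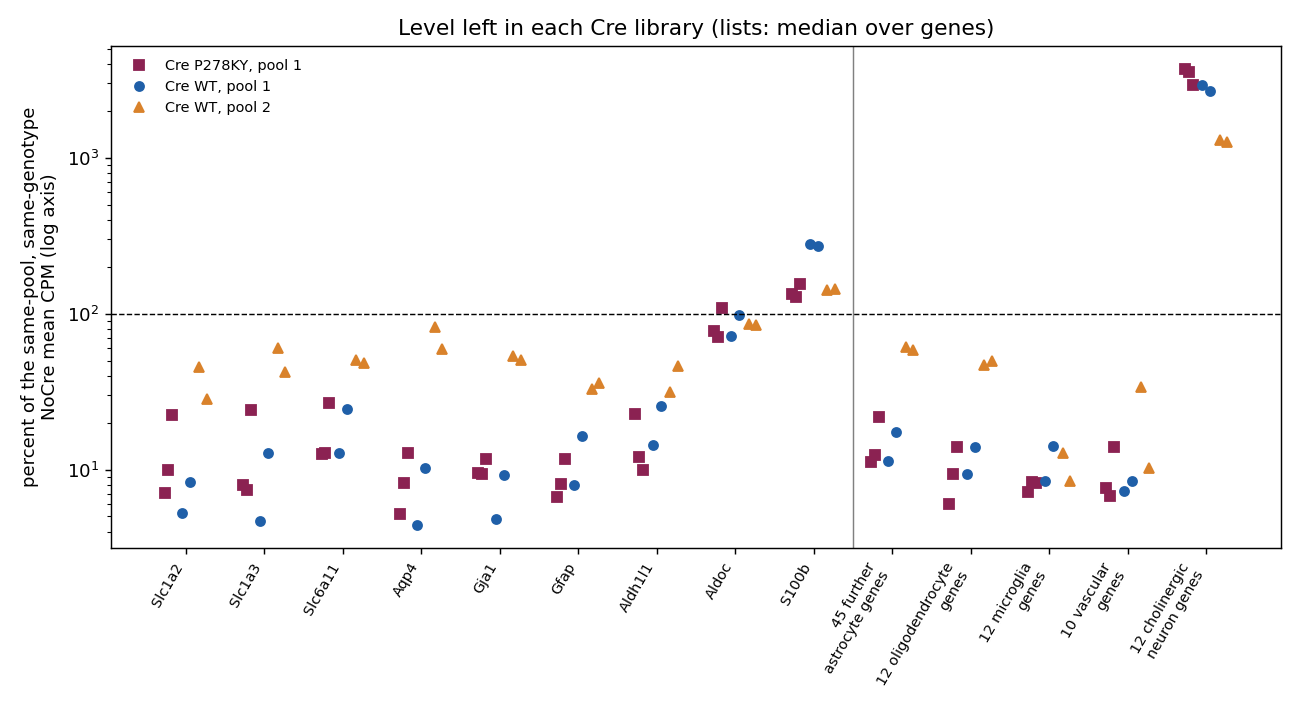
Level in each of the 7 Cre libraries as a percent of the mean CPM in NoCre libraries of the same genotype and pool (log axis, dashed line at 100%), for the 9 genes on the left and as the median over genes of 5 cell type lists on the right. Cre WT of pool 2 (triangles) lies above the pool 1 libraries for the 7 depleted members, further astrocyte genes and oligodendrocyte genes, and below them for cholinergic neuron genes.

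Between Cre P278KY and Cre WT libraries of both pools, 0 of the 9 genes were called by edgeR (2 at an unadjusted p under 0.05, S100b and Aldh1l1; 1 call by DESeq2, S100b lower, and 0 by limma-voom), where 2.32% of 14717 genes were called (1.22% higher and 1.11% lower). Gfap was at -1.41 (SE 0.72, edgeR adjusted p = 0.402), Aqp4 at -1.46 (SE 0.93, 0.502), Gja1 at -1.41 (SE 0.87, 0.484) and Aldh1l1 at -1.36 (SE 0.54, 0.247). Slc6a11 was at -1.05, Slc1a3 at -0.71, Slc1a2 at -0.50 and Aldoc at 0.09. These values carry the pool difference, since all Cre P278KY libraries are of pool 1. S100b was at -0.76 (SE 0.20, edgeR adjusted p = 0.0893), and it was the only member whose groups did not overlap, at 282 to 341 CPM in Cre P278KY against 421 to 647 CPM in Cre WT, beside 16.7% of all genes (8.00% lower and 8.67% higher).

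Within pool 1, on 3 Cre P278KY against 2 Cre WT libraries, S100b fell by 1.06 (SE 0.22, edgeR adjusted p = 0.00894). It was the 1 member called, beside 3.41% of all genes (1.80% lower and 1.61% higher). The call was lost without Cre WT replicate 1 (-1.03, edgeR adjusted p = 0.0553) or 2 (-1.08, 0.0775), which left 1 Cre WT library whose spread was taken from the other groups. It was also lost without Cre P278KY replicate 2 (-0.95, edgeR adjusted p = 0.081) and with libraries scaled by their total count alone (-0.67, edgeR adjusted p = 0.627). The other members gave 0.21 for Gfap, 0.66 for Aqp4, 0.57 for Slc1a2, 0.85 for Slc1a3, 0.82 for Gja1, 0.34 for Aldoc, -0.17 for Slc6a11 and -0.53 for Aldh1l1, with edgeR adjusted p-values from 0.15 to 0.832. For Gfap, Aqp4, Slc1a2, Slc1a3 and Gja1 the sign was thus opposite to that over both pools. In this comparison 3 of the 12 cholinergic neuron genes were also lower, which were Chodl (-3.02, SE 0.24, edgeR adjusted p = 6.47e-08), Calca (-2.45, SE 0.33, edgeR adjusted p = 0.000159) and Slc10a4 (-1.10, SE 0.27, edgeR adjusted p = 0.023). The Cre WT mice of pool 1 were male, and the Cre P278KY mice were 1 male and 2 females. The part of sex and of these 3 genes in the S100b difference was not tested.

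**Figure D4:**
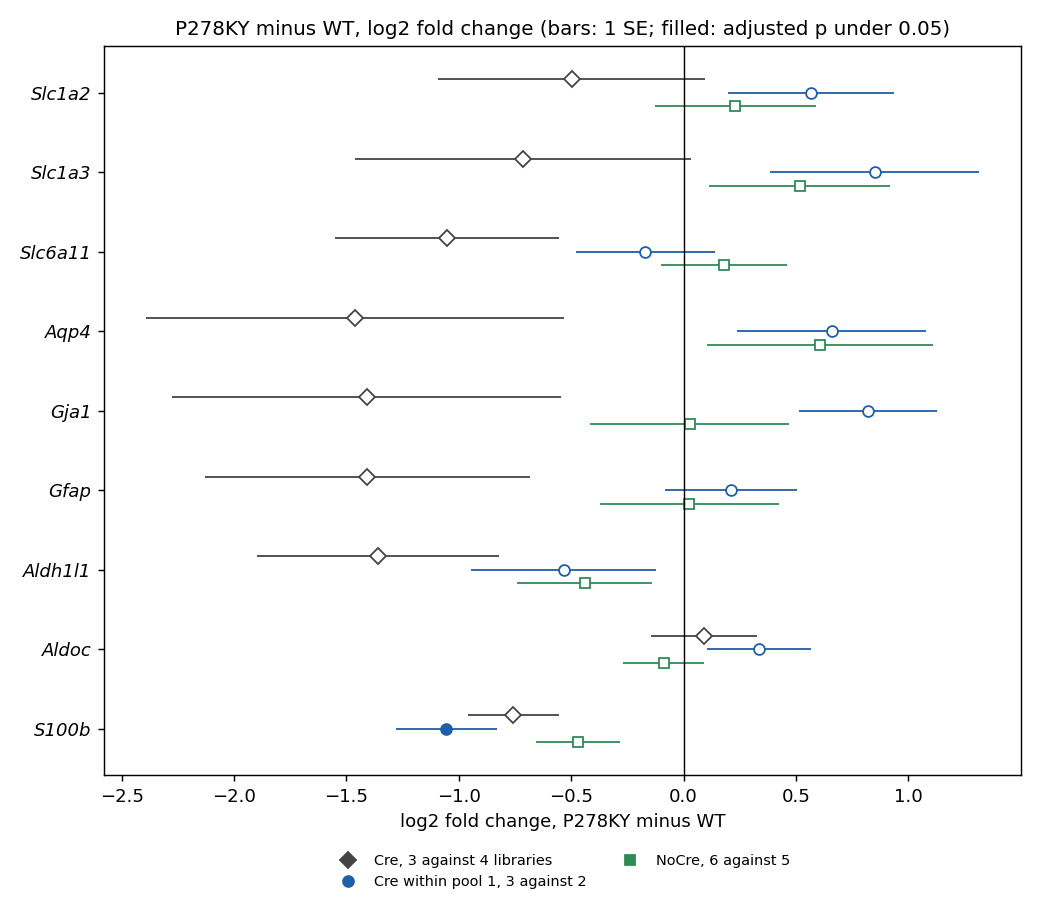
Log2 fold change of P278KY over WT for the 9 genes, with bars of 1 SE, among Cre libraries (diamonds), among Cre libraries of pool 1 (circles) and among NoCre libraries (squares), with a filled symbol for an edgeR adjusted p under 0.05. The single filled symbol is S100b within pool 1, and for 5 genes the diamond and the circle lie on opposite sides of 0.

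Between Cre P278KY and Cre WT, 3 of 44 further astrocyte genes, 1 of 23 reactive astrocyte genes and 1 of 23 family relatives were called, beside 2.32% of all genes. Of the further astrocyte genes, Plcd4 rose by 0.95 (SE 0.19, edgeR adjusted p = 0.0309), Glul fell by 1.28 (SE 0.26, edgeR adjusted p = 0.0354) and Ppp1r3c, a glycogen-targeting phosphatase subunit, fell by 0.95 (SE 0.20, edgeR adjusted p = 0.0392). Of the reactive astrocyte genes the matrix gene Fbln5 rose by 2.00 (SE 0.35, edgeR adjusted p = 0.0158). Of the relatives Slc1a4 rose by 0.91 (SE 0.20, edgeR adjusted p = 0.0431). Plcd4 (0.81, edgeR adjusted p = 0.135), Ppp1r3c (-0.92, 0.0599) and Slc1a4 (0.81, 0.152) kept their signs but were not called within pool 1. Within pool 1, Htra1 (-1.05, edgeR adjusted p = 0.00448), Pla2g7 (-0.97, 0.0122), Glul (-1.03, 0.0213), S100a10 (-1.43, 0.00859), Serpina3n (-1.19, 0.0137) and Hspb1 (-1.19, 0.0189) fell. Of these, all but Glul had risen in Cre over NoCre libraries in WT. Fbln5 (2.50, edgeR adjusted p = 0.00112), the glycine transporter gene Slc6a9 (1.60, 0.00428), Aldh1l2, the mitochondrial relative of Aldh1l1 (1.84, 0.00284), and the deiodinase gene Dio2 (1.64, 0.0398) rose within pool 1. The aquaglyceroporin gene Aqp9 was also called higher (edgeR adjusted p = 0.0252), at 1.04, 1.67 and 0.48 CPM in Cre P278KY against 0 CPM in both Cre WT libraries of pool 1. Dio2 and Aqp9 were named after their values were seen.

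In the mice without Cre, none of the 9 genes was called between NoCre P278KY and NoCre WT by edgeR, DESeq2 or limma-voom (1 at an unadjusted edgeR p under 0.05, S100b), beside 0.0233% of all genes. S100b was at -0.47 (SE 0.19, edgeR adjusted p = 0.71), and within pool 2 at -0.81 (SE 0.20, edgeR adjusted p = 0.0858). Gfap, a marker of reactive astrocytes, averaged 346.5 ± 56.7 CPM (SD, n = 6) in NoCre P278KY and 340.6 ± 123.1 CPM (SD, n = 5) in NoCre WT, at a log2 difference of 0.03 (SE 0.40). Aqp4 was at 0.61 (SE 0.50, edgeR adjusted p = 0.795) and Slc1a3 at 0.52 (SE 0.40, edgeR adjusted p = 0.784). By pool, Gfap went in opposite directions. In pool 1 it was at 338 to 399 CPM in NoCre P278KY against 211 to 253 CPM in NoCre WT. That log2 difference was 0.67 (SE 0.29) and was not called by edgeR. In pool 2 its mean was 324 CPM in NoCre P278KY against 413 CPM in NoCre WT. Over both pools the groups of every member overlapped, and 0.718% of all genes did not (0.339% higher and 0.379% lower). None of the 45 further astrocyte genes (0 at an unadjusted p under 0.05) and none of the 29 reactive astrocyte genes (2 at an unadjusted p under 0.05) was called by edgeR.

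Whether the loss in Cre libraries differed with genotype was tested as an interaction. None of the 9 genes was called by edgeR, DESeq2 or limma-voom (3 at an unadjusted edgeR p under 0.05, Gfap, Aqp4 and Slc6a11), beside 0.654% of all genes (0.344% higher and 0.309% lower). The interaction was -2.06 (SE 0.82, edgeR adjusted p = 0.348) for Aqp4, -1.42 (SE 0.65, 0.428) for Gfap and -1.23 (SE 0.46, 0.279) for Slc6a11. With pool 1 alone it was 0.26 for Aqp4, -0.46 for Gfap and -0.10 for Slc6a11.

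Per length, the 9 genes spanned a wide range. In Cre P278KY the mean deposited TPM was 341 for Aldoc and 332 for S100b, whose ranges overlapped. A gap followed, and then Slc1a2 at 30.2, Gfap at 18.5, Slc6a11 at 12.3, Aqp4 at 7.72, Gja1 at 3.97, Slc1a3 at 2.70 and Aldh1l1 at 1.04 TPM. In Cre WT the order was S100b at 547 and Aldoc at 354 TPM, which overlapped, then after a gap Gfap at 61.3, Slc1a2 at 58.5, Slc6a11 at 31.6, Aqp4 at 28.2, Gja1 at 13.5, Slc1a3 at 4.34 and Aldh1l1 at 2.96 TPM. These Cre WT means average over pools that differ: Gfap was at 112 TPM in pool 2 against 10.7 TPM in pool 1, Slc1a2 at 103 against 14.0 TPM, and Gja1 at 25.4 against 1.50 TPM. In pool 1 Slc1a2 stood above Gfap, and Aldh1l1 (1.02 TPM) above Slc1a3 (0.895 TPM). In NoCre P278KY it was Aldoc at 412, Slc1a2 at 303, S100b at 240, Gfap at 228, Aqp4 at 102, Slc6a11 at 92.6, Gja1 at 40.9, Slc1a3 at 27.2 and Aldh1l1 at 7.03 TPM, with a gap below Slc6a11 and below Slc1a3. In NoCre WT it was Aldoc at 306, S100b at 229, Slc1a2 at 215, Gfap at 148, Slc6a11 at 64.6, Aqp4 at 55.3, Gja1 at 28.9, Slc1a3 at 17.1 and Aldh1l1 at 7.01 TPM, and all neighbours overlapped. Aldoc and S100b together therefore led the astrocyte list in Cre libraries. S100b took 39.9% to 46.6% of the summed TPM of the 9 genes in Cre P278KY and 41.2% to 71.7% in Cre WT, against 10.9% to 23.2% in NoCre P278KY mice and 18.5% to 26.9% in NoCre WT. The assigned length of Slc1a3 varied with its isoforms, from 2188 to 3275 bases in Cre P278KY, 2918 to 3829 bases in Cre WT, 2015 to 2779 bases in NoCre P278KY and 1454 to 2607 bases in NoCre WT, so its TPM and its CPM do not move in parallel.

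Most of the members varied together within groups, with S100b apart. After group means were taken off log2 CPM over the 18 libraries, Pearson's r was 0.938 for Aqp4 with Slc1a3, 0.931 for Slc1a2 with Slc1a3 and 0.892 for Gfap with Gja1, and 0.232 for Aldh1l1 with Slc1a2. S100b ran from -0.625 with Slc1a2 to 0.131 with Aldoc. Genes of a library share its depth and scaling, and the Cre WT pools lie within these values, so the correlations are a description. Over the libraries as they are, the genes most like the mean of the 9 members were Ttyh1 (r = 0.994), S1pr1 (0.989), Padi2 (0.989), Hepacam (0.987) and Alox8 (0.986). With group means taken off they were S1pr1 (0.977), Ttyh1 (0.963), Sdc4 (0.962), Mbp (0.962) and Plekhb1 (0.955). For 8 of the members, the nearest gene was Cldn11 for Gfap (0.980), Slc4a4 for Aqp4 (0.987), Erbb4 for Slc1a2 (0.966), Ttyh1 for Slc1a3 (0.959), Sparc for Gja1 (0.967), Epas1 for Slc6a11 (0.932), Klk6 for Aldh1l1 (0.875) and Stub1 for S100b (0.968), each over 18 libraries.

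The counts of 2 genes within a library do not depend on its scaling. The count of S100b over that of Aldoc was 0.686 to 0.864 in Cre P278KY and 0.956 to 2.45 in Cre WT, against 0.354 to 0.702 in NoCre P278KY mice and 0.503 to 0.796 in NoCre WT. By two-sided exact permutation tests on the log ratio, p was 0.0159 for Cre WT against NoCre WT and 0.0571 for Cre P278KY against Cre WT, each the smallest that this number of libraries can give. It was 0.0476 for Cre P278KY against NoCre P278KY and 0.0736 for NoCre P278KY against NoCre WT. The ratio was picked after its values were seen and all 4 values adjusted to 0.235 over 16 such tests, so none passed. The count of Slc1a2 over that of Slc1a3 was 39.2 to 59.8 in Cre P278KY and 33.4 to 78.1 in Cre WT, against 42.3 to 51.9 in NoCre P278KY mice and 47.7 to 72.7 in NoCre WT, and the 4 groups overlapped.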

How the data were processed

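The authors deposited 1 table per library with expected counts, TPM and effective lengths for 38924 Ensembl genes, per the file headers those of RSEM. Per the submitters' processing notes, the tools were Bowtie2 (2.2.0) and RSEM (1.2.12), and the genome build is not given in the sources used here. Deposited expected counts were rounded to whole numbers for the tests, and deposited TPM (transcripts per 1000000) gave the order of levels between genes. The deposited lengths (bases per gene, assigned by RSEM from the isoforms in a library) were described but not tested. Of the gene identifiers, 37607 were found in GENCODE M21 (GRCm38) and 1317 were not.

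Counts were tested with the robust quasi-likelihood test of edgeR (4.0.16, under R 4.3.3) after filterByExpr and TMM scaling, two-sided, with p-values adjusted by Benjamini-Hochberg over all genes tested and a threshold of 0.05. Cre against NoCre, the NoCre genotype difference and the interaction used 18 libraries and 4 group means. The Cre genotype difference used the 7 Cre libraries. Values by pool used 18 libraries and 7 means of group and pool. CPM are TMM-scaled over 18 libraries. Alternatives were other scalings and filters, DESeq2 1.42.0, limma-voom 3.58.1, TPM with a pseudocount of 1, a replicate block, pools alone and each library left out. The fit with 4 group means and that of the 7 Cre libraries were tested on simulated data with known changes. The fit with 7 means of group and pool was not.

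The members and lists were chosen with earlier results of these data known. By rule, all 9 members are named, with up to 4 genes of smallest adjusted p per list and comparison, and the genes whose log2 CPM (prior count 2, mean above 1) correlated most with the members, leaving out predicted genes, pseudogenes and sex-linked markers. Libraries are named for separate mice. Counts of amplified reads are not independent molecules, so counting error is a lower limit of the error. Chromosome coordinates are given as in the annotation and were not used in any test.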

Additional observations from a re-analysis of the deposited data

Results flagged for a closer look

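Aldh1l1 stood apart in NoCre WT replicate 5, at 29.07 CPM against 13.5 to 16.9 CPM in the other 4 NoCre WT libraries. Slc6a11 stood apart in NoCre P278KY replicate 6, at 383.9 CPM against 179 to 238 CPM in the other 5 NoCre P278KY libraries. These were the 2 gaps past the critical value in 27 tests of 9 genes in 3 groups, and chance flags about 1 group in 20. The TMM factors of these 2 libraries were 0.7229 and 0.5819, in that order. In deposited TPM, Aldh1l1 was at 8.99 in the first, within a group range of 2.9 to 9.66. Slc6a11 was at 70.02 in the second, within a group range of 66.19 to 124.2. The gaps thus depended on the scaling.

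In WT mice the Cre minus NoCre difference was not the same in the 2 pools. On the log2 scale, pool 2 minus pool 1 was 1.507 for Gfap (edgeR adjusted p = 0.0423), 3.278 for Aqp4 (0.00915), 2.444 for Slc1a2 (0.017), 2.565 for Slc1a3 (0.0245) and 2.885 for Gja1 (0.00179). The WT mice of pool 2 were female and those of pool 1 male, so the 2 cannot be told apart.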

How the results depend on the processing

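In the fits of Cre minus NoCre with 4 group means, the 7 members that fell kept their sign under the alternatives run, each pool alone included, with -4.42 to -1.94 in P278KY and -3.99 to -0.52 in WT. Precision is limited by 2 to 6 libraries per group, and by 20 to 211 counts for Aldh1l1 and 24 to 509 for Slc1a3 in Cre libraries. In the fit with 7 group-by-pool means Aqp4 turned its sign within pool 2 of WT with a library left out (0.04116 at the highest). The pool subsets, the pool term, the protein-coding scaling and the libraries left out within pools, with Cre WT replicates 3 and 4 left out together, include choices made after seeing the data. The cause of a change was not tested.

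In Cre P278KY minus Cre WT, pool 1 alone, which is also the fit without Cre WT replicates 3 and 4, turned the sign of Gfap (0.2913), Aqp4 (0.7382), Slc1a2 (0.6344), Slc1a3 (0.9256) and Gja1 (0.8999), and pool as a term gave 0.2922, 0.7395, 0.6352, 0.9255 and 0.9034 in the same order. S100b was then called, at -0.98 in both (edgeR adjusted p 0.00852 and 0.00434). Genes called (342) numbered 148 scaled by total count, 157 without ribosomal RNA, 972 by DESeq2, 97 on TPM, 1676 with pool as a term and 1343 for pool 1 alone, and 95 to 324 with a library left out; members called lower (0) numbered 1 by DESeq2, with pool as a term and for pool 1 alone. Aldoc ran from -0.08307 to 0.2064 with a library left out.

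Of 12 pairs of mice in different groups that share the number starting their names, 2 had a correlation over 0.1 (median -0.0104). Of 107 such pairs with unlike numbers, 17 did (median -0.00381). Most of the 12 pairs lay in different pools, so the check cannot decide whether the number pairs mice. With that number as the replicate block, 1664 genes and 5 members lower were called in Cre P278KY minus Cre WT, with Aldoc at -0.05868. Among Cre libraries, only Cre P278KY replicates 1 and 3 and Cre WT replicates 3 and 4 share a number across genotypes. The former are of pool 1 and the latter of pool 2. The blocked Cre difference therefore cannot tell genotype from pool, and its 5 members are not a genotype result. In NoCre P278KY minus NoCre WT the block called 2 genes, with Gfap at -0.2616, Aqp4 at -0.2163, Slc1a2 at -0.09224 and Gja1 at -0.8454. In Cre WT minus NoCre WT the block called Aldoc lower (-0.56, edgeR adjusted p = 0.0129).

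In Cre WT minus NoCre WT the count of members higher (1) was 0 without ribosomal RNA, with protein-coding scaling and in pool 2 alone, and genes called (10229) were 4955 in pool 2 alone. Aldoc was 0.1284 scaled by total count and 0.1097 on TPM, and was called lower with protein-coding scaling (-0.80, edgeR adjusted p = 0.00916). Aqp4 lost its call scaled by total count (-1.08, edgeR adjusted p = 0.198), with no filter (-1.38, 0.0859) on TPM (-1.57, 0.0821) and in pool 2 alone (-0.52, 0.313), and Gja1 scaled by total count (-1.22, 0.113). In Cre P278KY minus NoCre P278KY members higher (1) were 0 scaled by total count, without ribosomal RNA, with protein-coding scaling and on TPM, and 0 to 1 with a library left out. Genes called there (10180) were 6568 on TPM, and Aldoc ran from -0.2958 to 0.03127 with a library left out. Taken relative to the median of all genes, S100b was at 1.06 to 1.09 in WT and 0.72 to 0.78 in P278KY over the count scalings. A scaling shifts all genes of a library alike, so these values could hardly differ and do not test the S100b rise. The median of all genes was 0.20 in WT scaled by total count and -0.51 without ribosomal RNA (-0.55 in P278KY). The share of calls that were higher was 47.7% in WT, against 59.2% scaled by total count, 29.4% without ribosomal RNA, 25.7% with protein-coding scaling and 63.8% on TPM.

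In pool 1 of WT, scaling by total count gave 5795 genes (8807) and 0 members higher. In pool 2 it gave 0 members lower (5) and 1 higher (0), with Aldoc at 0.5345; with a library left out, genes called were 3910 to 6854, members lower 2 to 6 and Aqp4 -0.7348 to 0.04116. For pool 2 minus pool 1 it gave 88 genes (949), 2 members higher (5) and S100b at 0.0527, and RLE scaling gave Aldoc at -0.08205; with a library left out, genes called were 152 to 2466, members higher 2 to 5, members lower 0 to 1 and Aldoc -0.2006 to 0.2464. In the genotype difference within pool 1 it gave 65 genes (584), 0 members lower (1) and Slc6a11 at 0.1843; with a library left out, genes called were 125 to 393, members lower 0 to 1, Gfap -0.2214 to 0.8191, Slc1a2 -0.0503 to 0.9224 and Slc6a11 -0.6098 to 0.3715.

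For the interaction, genes called (112) were 5 scaled by total count, 28 without ribosomal RNA, 382 by DESeq2, 34 on TPM, 406 in pool 1 alone and 41 to 250 with a library left out. Aldoc was -0.3142 scaled by total count, -0.01797 without ribosomal RNA, -0.2351 on TPM, -0.03368 without NoCre WT replicates 4 and 5 and -0.04538 to 0.3314 with a library left out. Pool 1 alone gave Aqp4 at 0.2681, Slc1a2 at 0.9534, Slc1a3 at 0.5978 and Gja1 at 0.5491. Leaving out Cre WT replicates 3 and 4 gave Gfap at 0.2853, Aqp4 at 0.14, Aldh1l1 at 0.01986, Slc1a2 at 0.4162, Slc1a3 at 0.4206 and Gja1 at 0.8835.

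For NoCre P278KY minus NoCre WT, genes called (4) were 2 scaled by total count, 7 with protein-coding scaling, 28 by DESeq2, 1 by voom, 0 on TPM, 2 in pool 2 alone, 2 without NoCre WT replicates 4 and 5 and 2 to 6 with a library left out. Signs turned for Gfap (DESeq2 -0.006421, RLE -0.006028, pool 2 -0.3534), Gja1 (DESeq2 -0.001493, RLE -0.000541, pool 2 -0.2211), Slc1a2 (pool 1 -0.3527, without NoCre WT replicates 4 and 5 -0.06928), Slc6a11 (pool 1 -0.03053) and Aldh1l1 (TPM 0.01858). Aldoc was 0.3645 scaled by total count, 0.08896 without ribosomal RNA, 0.3746 on TPM, 0.3666 in pool 1 and 0.116 without NoCre WT replicates 4 and 5. With a library left out, Gfap ran from -0.1672 to 0.1547, Gja1 from -0.0533 to 0.1071 and Slc6a11 from -0.0224 to 0.2553.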
